A study of Nannochloropsis oceanica with 36 samples.

Results

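Transcript levels are described here for Nannochloropsis oceanica IMET1, a unicellular marine alga, at 24 h after its cells were moved to nitrogen-deprived (N-deprived) medium, against cells moved to nitrogen-replete (N-replete) medium and sampled at the same time. The libraries were chosen by their titles and number 6 of the 36 in the study, 3 biological replicates in each medium. Cultures of both groups were of 1 strain, IMET1, kept at 25 °C in constant light (about 50 µmol photons, per square metre each second) and bubbled with air holding 1.5% CO2, washed in mid-logarithmic phase and re-inoculated at equal cell numbers. The N-deprived and N-replete groups therefore share the wash and the transfer and differ, by the labels, in the nitrogen of the medium. The labels give 1 g/l NaNO3 for the modified f/2 medium of the cultures before transfer, and no nitrogen content for the medium of either group after it. The other 30 libraries sample both media at 3, 4, 6, 12 and 48 h and enter here for the estimate of spread and for the comparison with other times. Levels are FPKM, sequenced fragments scaled by transcript length and by the library's mapped total, and genes with at least 1 FPKM in 3 or more of the 36 libraries were tested, 9647 of 9756 gene models. Just outside that limit, 7 gene models reached 1 FPKM in 2 libraries and none of them exceeded 0.850 FPKM at 24 h. Just inside it, 7 gene models reached 1 FPKM in 3 libraries and had at most 1.70 FPKM at 24 h.

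Nitrogen is a constituent of amino acids, nucleotides and chlorophyll, so an alga without a supply of it is limited in building protein, and chlorophyll and photosynthetic proteins typically decline. Oleaginous algae such as Nannochloropsis are known for storing carbon as triacylglycerol under these conditions, made from diacylglycerol by diacylglycerol acyltransferases. The files pair 1 of the 9756 gene models with a gene symbol, DGAT1A, and the rest carry scaffold identifiers. Genes are therefore described by identifier, position, level and change. The labelled cell type could not be checked against marker genes. Positions are 1-based on scaffolds, and the sources used here do not give their genome build.

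The 6 libraries resembled each other closely within a medium, and across genes, which are not independent replicates, their log2(FPKM + 1) values had a Pearson correlation between 0.9921 and 0.9943. Summed FPKM lay between 505321 and 548281 in the N-deprived libraries and between 567006 and 629498 in the N-replete libraries. Median FPKM ran the other way, from 27.9 to 29.7 in N-deprived and from 24.3 to 26.8 in N-replete libraries, so neither measure overlapped between the media. By summed FPKM, replicate 3 was the lowest of the N-deprived and the highest of the N-replete libraries, at 24 h and at every other time. Between 23 and 46 gene models were listed at 0 in a library. Numbers of sequenced fragments are not given in the files. In bulk RNA of a culture, fewer cells with a transcript and less of it per cell cannot be told apart.

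At 24 h, N-deprived cells had 676 genes raised at least 2-fold over N-replete cells (7.01% of genes tested) and 461 lowered at least 2-fold (4.78%). The strongest differences were fewer: 114 genes (1.18%) rose and 74 (0.767%) fell at least 4-fold, 27 (0.28%) rose and 16 (0.166%) fell at least 8-fold, and 3 (0.0311%) rose and 6 (0.0622%) fell at least 16-fold. Folds are on the log2(FPKM + 1) scale, which understates changes of genes near 1 FPKM. The calls are those of limma at a Benjamini-Hochberg adjusted p under 0.05, which 67.8% of genes passed in all, 41.3% as higher and 26.4% as lower, so most calls were of changes under 2-fold. N-deprived and N-replete libraries were free of overlap for 70% of genes. They were so for 676 of the 676 genes at least 2-fold higher and 461 of the 461 at least 2-fold lower. Those genes were chosen by call and fold in the same libraries, which makes overlap unlikely from the outset. Because FPKM values are shares, scaling moved the balance of the directions: with each library centred on its median log2 ratio, 482 genes rose and 640 fell at least 2-fold, and of all calls 45.6% were rises, against 61.0% without centring. With quantile normalization 600 rose and 544 fell at least 2-fold, and 48.7% of calls were rises.

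In N-replete cells the genes that fell stood at higher levels than those that rose, while in N-deprived cells their medians lay close together. The genes that fell at least 2-fold had median levels of 48.9 FPKM (N-deprived) and 139 FPKM (N-replete), against a median of 29.4 and 25.7 FPKM over all genes tested. Genes at least 2-fold higher had a median of 57.3 FPKM in N-deprived and 20.5 FPKM in N-replete cells. Of the 461 that were lower, 160 stood at 100 FPKM or more in N-deprived and 272 in N-replete cells. Of the 676 that were higher, 193 stood at 100 FPKM or more in N-deprived and 39 in N-replete cells. These levels come from the libraries that chose the genes, a choice that favours falls at high and rises at low N-replete levels. They are given as a description.

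**Figure D1:**
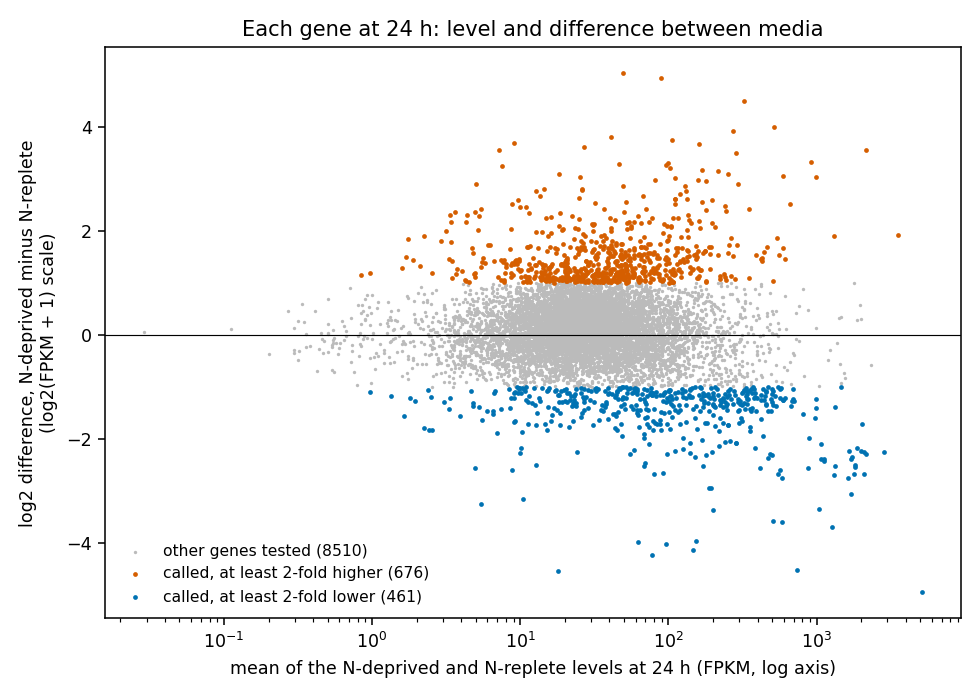
Each point is 1 of the 9647 genes tested, at its mean FPKM over both media at 24 h (horizontal log axis) and its log2 difference, N-deprived minus N-replete (vertical). The 676 genes called and at least 2-fold higher are orange, the 461 called and at least 2-fold lower are blue. Of the blue genes 272 stood at 100 FPKM or more in N-replete cells, and of the orange ones 39 did. In N-deprived cells 160 of the blue and 193 of the orange genes did.

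To order genes by level without the 24 h libraries, they were ranked by mean FPKM in the N-replete libraries of the other 5 times. The ranking was split into 10 level classes of 964 or 965 genes. It is not free of the difference between the media, which lasted. Among the 461 falls of at least 2-fold, 388 were also called at 12 h and 448 at 48 h. An order by N-replete levels therefore favours falls in the upper classes and rises in the lower ones. An order by both media was not tested. In the most abundant class, 964 genes with a mean of 106 FPKM or more, 560 fell and 197 rose at 24 h, 235 of them falling and 38 rising at least 2-fold. The share at least 2-fold lower there was 24.4%, against 4.78% of all genes tested. The median log2 difference was -0.36 in this class and 0.12 over all genes. In the least abundant class, 965 genes with a mean of 8.34 FPKM or less, 436 rose and 108 fell, 134 of them rising and 18 falling at least 2-fold, with a median of 0.27. The median climbed from class to class, from -0.11 in class 2 to 0.24 in class 8, and was 0.27 in classes 9 and 10. With median-ratio centring the medians of the most and least abundant class were -0.53 and 0.11, and with quantile normalization -0.29 and 0.20, so their order held under both while every value shifted. Centring moved the median of all genes by -0.16 and quantile normalization by -0.13.

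Within the most abundant class the falls concentrated at its top, with the same limit of an order by N-replete levels. Of the 100 most abundant genes by the same ranking, 81 fell and 8 rose, 63 fell at least 2-fold and 3 rose at least 2-fold, and their median log2 difference was -1.23. Of the first 50, 37 fell, 30 of them at least 2-fold, and 5 rose, 2 of them at least 2-fold. These 100 genes made up 12.8%, 13.2% and 12.9% of the summed FPKM of the N-deprived libraries, against 24.5%, 25.1% and 24.9% of the N-replete libraries. The groups did not overlap, and the N-deprived share averaged 13.0% ± 0.221, against 24.9% ± 0.312 in N-replete cells (SD, n = 3 each). With the 12 h libraries left out of the ranking, 61 of the first 100 were at least 2-fold lower.

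**Figure D2:**
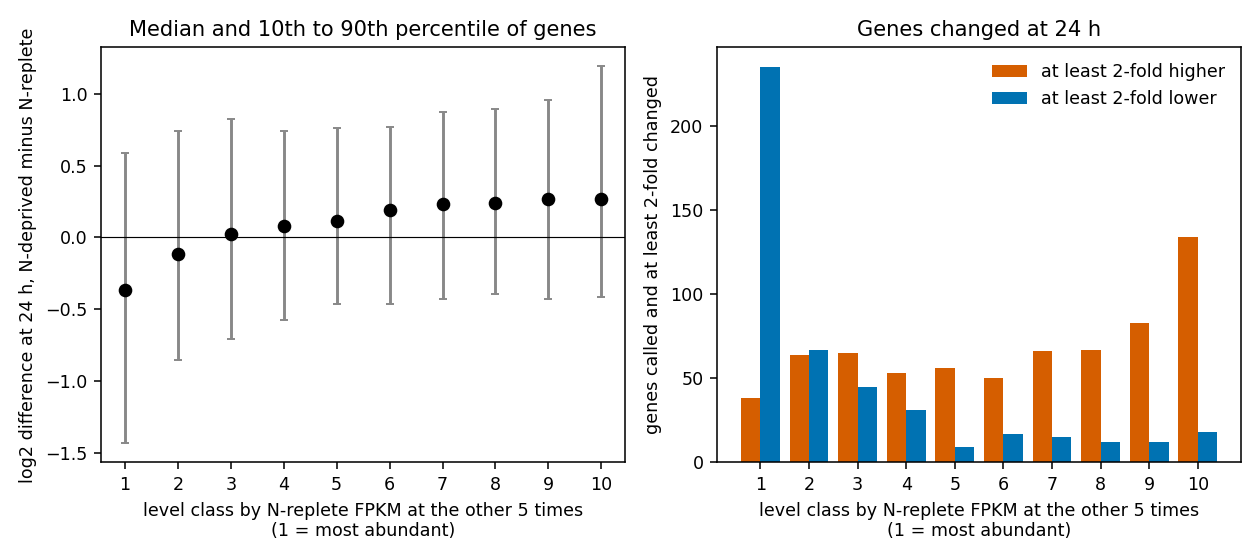
Genes were split into 10 level classes by mean FPKM in the N-replete libraries of the other 5 times. Class 1 was the most abundant in that medium, an order that favours falls in the upper classes. Left, the median log2 difference at 24 h (N-deprived minus N-replete; points) with the 10th to 90th percentile of genes (bars), from -0.36 in class 1 to 0.27 in class 10; right, the number of genes called and at least 2-fold higher (orange) or lower (blue), with 235 falls in class 1 and 134 rises in class 10.

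The shares of summed FPKM held by the changed genes are given as a description, since the genes were chosen for their change in these libraries, which fixes the direction. The 461 genes at least 2-fold lower held 9.55%, 9.66% and 9.67% of the summed FPKM in N-deprived libraries and 30.2%, 30.9% and 30.2% in N-replete libraries. The 676 genes at least 2-fold higher held 15.7%, 15.4% and 15.6% in N-deprived libraries and 4.13%, 4.01% and 4.05% in N-replete libraries. All other genes tested averaged 74.8% ± 0.0699 in N-deprived and 65.5% ± 0.357 in N-replete cells (SD, n = 3 each). The 10 most abundant genes of the N-deprived libraries shared 0 with the 10 most abundant of the N-replete libraries, and of the first 100 of each medium 46 were shared, 46% of each list.

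The 10 most abundant transcripts of N-replete cells at 24 h all fell, by 3.27-fold to 30.9-fold. First among them was scaffold00069.g2383 (scaffold00069, 445093 to 446789), with 318, 318 and 332 FPKM in N-deprived libraries and 10135, 9668 and 10220.0 FPKM in N-replete libraries. It was the most abundant gene model in N-replete cells and number 187 in N-deprived cells. The second, scaffold00214.g6067 (scaffold00214, 1086 to 2040), had 1015, 999 and 948 FPKM in N-deprived libraries and 4310.0, 4973 and 4950.2 FPKM in N-replete libraries, and its log2 difference was -2.26 (limma, SE 0.091, adjusted p = 9.35e-20). Both sets of libraries lay far apart, with the lowest N-replete library above every N-deprived one.

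The next most abundant of the N-replete transcripts fell as well. The third, scaffold00182.g5628 (scaffold00182, 740646 to 742471), had 571, 585 and 528 FPKM in N-deprived libraries and 3044, 3864 and 3893 FPKM in N-replete libraries, and its log2 difference was -2.67 (limma, SE 0.113, adjusted p = 3.07e-19). The fourth, scaffold00007.g240 (scaffold00007, 625972 to 627453), had 740.3, 760.0 and 693 FPKM in N-deprived libraries and 3320.2, 3719 and 3751 FPKM in N-replete libraries, and its log2 difference was -2.30 (limma, SE 0.089, adjusted p = 4.06e-20). The fifth, scaffold00355.g10357 (scaffold00355, 168809 to 170411), had 723, 728 and 731 FPKM in N-deprived libraries and 3406, 3374 and 3570.0 FPKM in N-replete libraries. In these 3 genes every N-replete library lay above every N-deprived one, and the falls were 6.37-fold, 4.91-fold and 4.74-fold. The remaining 5, scaffold00060.g2182, scaffold00104.g3775, scaffold00080.g2604, scaffold00341.g9733 and scaffold00330.g9514, averaged 484 to 949 FPKM in N-deprived and 3097 to 3286 FPKM in N-replete cells. The share of these 10 genes in summed FPKM was 1.23% in N-deprived and 6.86% in N-replete cells.

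The largest loss outside these 10 in FPKM was of scaffold00082.g3077 (scaffold00082, 681413 to 683027), with 350, 372 and 366 FPKM in N-deprived libraries and 3049, 2956 and 3083 FPKM in N-replete libraries, 8.34-fold lower (log2 -3.06, SE 0.094; limma, adjusted p = 1.40e-22). The libraries did not overlap, and by level it was number 12 in N-replete cells.

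The 12 deepest falls by fold were 10.3-fold to 30.9-fold and included transcripts of very different level, from 0.480 to 323 FPKM in N-deprived and from 35.2 to 10008 FPKM in N-replete cells. The gene scaffold00185.g5950 (scaffold00185, 595276 to 598245) had 55.9, 62.9 and 62.7 FPKM in N-deprived libraries and 1261, 1441 and 1522 FPKM in N-replete libraries, 22.9-fold lower (log2 -4.52, SE 0.096; limma, adjusted p = 4.28e-26). Transcripts of scaffold00127.g4354 (scaffold00127, 544341 to 547235) had 15.1, 15.4 and 14.3 FPKM in N-deprived libraries and 252, 304 and 280.3 FPKM in N-replete libraries, 17.5-fold lower (log2 -4.13, SE 0.102; limma, adjusted p = 1.02e-24). Those of scaffold00080.g2748 (scaffold00080, 766708 to 769738), number 18 by level in N-replete and number 461 in N-deprived cells, averaged 182 ± 10.3 FPKM in N-deprived and 2373 ± 32.1 FPKM in N-replete cells (SD, n = 3 each), 12.95-fold lower. In each of these the media were separated by many times the spread of their replicates.

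Further deep falls were of genes with mean N-replete levels from 287 to 1073 FPKM. Transcripts of scaffold00096.g3545 (scaffold00096, 272167 to 274734) had 17.6, 20.2 and 15.1 FPKM in N-deprived libraries and 259, 309 and 293 FPKM in N-replete libraries, 15.5-fold lower. Those of scaffold00267.g7531 (scaffold00267, 71197 to 73851) had 91.8, 91.4 and 80.2 FPKM in N-deprived libraries and 914, 1137 and 1168 FPKM in N-replete libraries, 12.05-fold lower. Those of scaffold00259.g7398 (scaffold00259, 601462 to 603864) had 79.3, 77.9 and 76.6 FPKM in N-deprived libraries and 897, 975 and 963 FPKM in N-replete libraries, 11.98-fold lower. The last of the 12, scaffold00214.g6223 (scaffold00214, 507680 to 511343), was 10.3-fold lower, at 34.6 ± 3.08 FPKM in N-deprived and 367 ± 41.9 FPKM in N-replete cells (SD, n = 3 each). The largest adjusted p among the 12 was 2.66e-16 in limma.

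**Figure D3:**
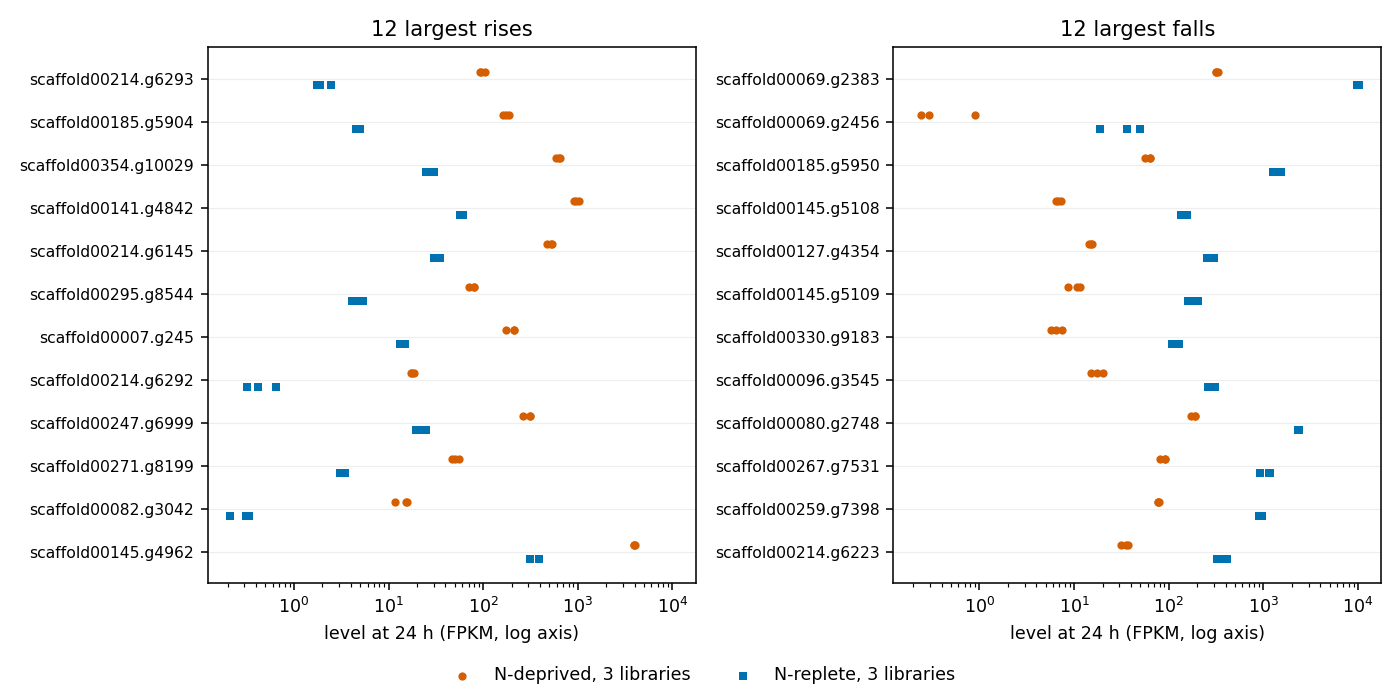
Levels in each 24 h library (FPKM, log axis) of the 12 genes with the largest rises (left) and the 12 with the largest falls (right) by log2 difference, N-deprived libraries as orange circles above N-replete libraries as blue squares. In 24 of these 24 genes the libraries of the media do not overlap, since the genes were chosen to be so. For scaffold00069.g2456 the N-replete libraries range from 19.0 to 50.2 FPKM.

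In N-deprived cells the most abundant transcript was scaffold00267.g7791 (scaffold00267, 785210 to 788424), with 5751, 5768 and 5376 FPKM in N-deprived libraries and 1512, 1432 and 1538 FPKM in N-replete libraries, where it was number 35. It was 3.77-fold higher (log2 1.91, SE 0.084; limma, adjusted p = 7.35e-19). Next came scaffold00145.g4962 (scaffold00145, 358296 to 359920), with 3993, 3929 and 3919 FPKM in N-deprived libraries and 313, 314 and 389 FPKM in N-replete libraries, 11.7-fold higher (log2 3.55, SE 0.096; limma, adjusted p = 5.51e-24). This gene was number 247 by level in N-replete cells and was among both the largest gains in FPKM and the largest by fold.

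Other gains brought genes from ranks 118 to 542 in N-replete cells into the first 10 of N-deprived cells. Transcripts of scaffold00341.g9770 (scaffold00341, 166902 to 169308) had 1852, 1767 and 1639 FPKM in N-deprived libraries and 209, 217 and 218 FPKM in N-replete libraries, 8.13-fold higher. Those of scaffold00096.g3507 (scaffold00096, 161655 to 166352) had 1727, 1745 and 1513 FPKM in N-deprived libraries and 160.1, 166 and 170.4 FPKM in N-replete libraries, 9.96-fold higher. Those of scaffold00259.g7364 (scaffold00259, 522737 to 524992) had 2105, 2135 and 1933 FPKM in N-deprived libraries and 520.2, 554 and 573 FPKM in N-replete libraries, 3.74-fold higher. The ranks of these genes were 9, 10 and 6 in N-deprived cells and 441, 542 and 118 in N-replete cells. A smaller rise on a high level gave scaffold00145.g4945 (scaffold00145, 305628 to 307192) the sixth largest gain, with 2264, 2355 and 2568 FPKM in N-deprived libraries and 1126, 1129 and 1364 FPKM in N-replete libraries (log2 0.99, SE 0.106; limma, adjusted p = 1.35e-09).

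The other 4 of the 10 most abundant N-deprived transcripts changed by less than 2-fold. Transcripts of scaffold00247.g6874 (scaffold00247, 895523 to 898438) averaged 2359 ± 207 FPKM in N-deprived and 1593 ± 97.4 FPKM in N-replete cells (SD, n = 3 each; log2 0.56, limma, adjusted p = 5.19e-06). Those of scaffold00182.g5679 (scaffold00182, 867016 to 869140) were lower, at 1862 ± 109 FPKM in N-deprived and 2798 ± 196 FPKM in N-replete cells (SD, n = 3 each; log2 -0.59, limma, adjusted p = 2.96e-05), while with quantile normalization their log2 difference was 0.51. The pair that did not pass had overlapping libraries. Transcripts of scaffold00081.g2813 (scaffold00081, 57816 to 59427) had 2345, 2723 and 1472 FPKM in N-deprived libraries and 1486, 1253 and 2642 FPKM in N-replete libraries (log2 0.31, SE 0.234; limma, adjusted p = 0.241). Replicate 3 was the lowest of the N-deprived and the highest of the N-replete libraries, and without N-deprived replicate 3 the log2 difference was 0.57 (limma, adjusted p = 0.0409), without N-replete replicate 3 it was 0.63 (adjusted p = 0.0188). Transcripts of scaffold00096.g3746 (scaffold00096, 847689 to 852063) had 1937, 2381 and 1856 FPKM in N-deprived libraries and 1603, 1474 and 1994 FPKM in N-replete libraries (log2 0.29, SE 0.173; limma, adjusted p = 0.143). With quantile normalization both passed, at log2 1.37 and 1.24.

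By fold, the 12 largest rises were 11.7-fold to 32.6-fold, from levels of 0.287 to 339 FPKM in N-replete cells. Transcripts of scaffold00214.g6293 (scaffold00214, 718944 to 720038) had 104, 95.5 and 92.6 FPKM in N-deprived libraries and 2.45, 1.75 and 1.90 FPKM in N-replete libraries. Those of scaffold00185.g5904 (scaffold00185, 458230 to 459184) had 188, 173 and 163 FPKM in N-deprived libraries and 4.98, 4.48 and 4.69 FPKM in N-replete libraries. Both were rare in N-replete cells, at ranks 9468 and 9162, and reached ranks 1077 and 492 in N-deprived cells.

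Several of these genes rose into the upper ranks. Transcripts of scaffold00141.g4842 (scaffold00141, 5646 to 7020) had 1039, 962 and 915 FPKM in N-deprived libraries and 61.1, 61.0 and 57.2 FPKM in N-replete libraries (log2 4.00, SE 0.105; limma, adjusted p = 3.03e-24). Those of scaffold00354.g10029 (scaffold00354, 152757 to 157811) had 645, 635 and 590.2 FPKM in N-deprived libraries and 24.6, 25.6 and 30.2 FPKM in N-replete libraries, 22.5-fold higher (log2 4.49, SE 0.080; limma, adjusted p = 4.42e-28). Those of scaffold00214.g6145 (scaffold00214, 278638 to 280882) had 527, 536 and 467 FPKM in N-deprived libraries and 30.4, 32.5 and 35.2 FPKM in N-replete libraries, 15.2-fold higher. In each, the lowest N-deprived library stood more than 10 times above the highest N-replete library.

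Rises of 12.7-fold to 13.9-fold were seen for genes at lower levels. Transcripts of scaffold00295.g8544 (scaffold00295, 609913 to 614097) had 79.9, 80.4 and 71.2 FPKM in N-deprived libraries and 4.14, 4.47 and 5.33 FPKM in N-replete libraries. Those of scaffold00007.g245 (scaffold00007, 642826 to 646103) had 210.4, 213 and 172 FPKM in N-deprived libraries and 15.0, 13.5 and 13.3 FPKM in N-replete libraries. Those of scaffold00247.g6999 (scaffold00247, 1233335 to 1234287) had 316, 315 and 263 FPKM in N-deprived libraries and 19.6, 23.2 and 25.1 FPKM in N-replete libraries. In all 3 genes N-deprived replicate 3 was the lowest of its group, as it was in summed FPKM, and still far above the N-replete libraries. The largest adjusted p among the 12 rises was 9.90e-16 in limma.

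The gene with a symbol, isotig00738.DGAT1A (isotig00738, 1 to 2030), rose. The symbol is that of a type 1 diacylglycerol acyltransferase, an enzyme of the last step of triacylglycerol synthesis. It had 56.3, 54.6 and 56.7 FPKM in N-deprived libraries and 21.2, 20.3 and 24.0 FPKM in N-replete libraries. The libraries did not overlap, and the gene was 2.50-fold higher (log2 1.32, SE 0.069; limma, adjusted p = 6.60e-17). By level it was number 2314 in N-deprived and number 5525 in N-replete cells. It was called higher at every other time too, by log2 0.71, 0.77, 0.89, 0.71 and 1.17 at 3, 4, 6, 12 and 48 h. Its difference at 24 h exceeded that at 12 h by 0.61 on the log2 scale (SE 0.097; limma, adjusted p = 6.68e-06), a comparison that 48.6% of all genes passed. The difference from 48 h, 0.15 (SE 0.097; limma, adjusted p = 0.245), did not pass. Other genes of lipid synthesis could not be looked up, since no other identifier carries a symbol.

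In 4 genes all libraries of a medium lay under 1 FPKM while all of the other reached 10 FPKM. Transcripts of scaffold00082.g3042 (scaffold00082, 565713 to 567272) had 15.5, 15.3 and 11.6 FPKM in N-deprived libraries and 0.212, 0.336 and 0.314 FPKM in N-replete libraries. Those of scaffold00214.g6292 (scaffold00214, 715988 to 716939) had 17.1, 18.7 and 17.5 FPKM in N-deprived libraries and 0.323, 0.419 and 0.649 FPKM in N-replete libraries. Those of scaffold00341.g9769 (scaffold00341, 165884 to 166717) had 17.1, 12.0 and 13.8 FPKM in N-deprived libraries and 0.382, 0.877 and 0.581 FPKM in N-replete libraries. In the other direction, scaffold00069.g2456 (scaffold00069, 642714 to 644318) had 0.242, 0.903 and 0.294 FPKM in N-deprived libraries and 50.2, 36.5 and 19.0 FPKM in N-replete libraries, whose values spread more than 2-fold. None of the 24 values was listed at 0, and the added 1 FPKM holds down the fold of all 4 genes.

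Genes changed alike were often neighbours. Of the 664 genes at least 2-fold higher that had a tested neighbour on their sequence, 192 (28.9%) lay next to another that was at least 2-fold higher, and of all 9561 genes with a tested neighbour 13.0% lay next to one. Of the 459 genes at least 2-fold lower with a tested neighbour, 131 (28.5%) lay next to another that was at least 2-fold lower, and of all genes 9.06% did. Of consecutive pairs, 102 were both at least 2-fold higher, 69 both at least 2-fold lower and 59 of opposite direction. Pearson's r of the log2 differences across all 9289 consecutive pairs, which share genes and libraries, was 0.15, with 0.17 for the 7617 pairs less than 500 bp apart and 0.09 for the others. The median gap was 94 bp between neighbours that were both higher and 187 bp between those both lower, against 124 bp over all pairs. No loci of consecutive genes overlapped in the files. The libraries carry no strand, so fragments of neighbouring genes that meet at their ends cannot be told apart.

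There were 152 runs of consecutive gene models, 2 or 3 long, that were all called and at least 2-fold changed in 1 direction. Of these, 90 were higher, 12 of them 3 genes long, and 62 were lower, 7 of them 3 genes long. The 3-gene run with the largest mean change lay on scaffold00145, where scaffold00145.g5108 (770883 to 771550) had 7.25, 6.47 and 6.76 FPKM in N-deprived libraries and 157, 134 and 151 FPKM in N-replete libraries. Next to it, scaffold00145.g5109 (771564 to 772708) had 10.8, 11.7 and 8.65 FPKM in N-deprived libraries and 159.6, 187 and 203 FPKM in N-replete libraries, and scaffold00145.g5110 (772803 to 774930) averaged 12.8 ± 0.590 FPKM in N-deprived and 34.6 ± 2.09 FPKM in N-replete cells (SD, n = 3 each). The first pair, 18.9-fold and 16.3-fold lower, lies 13 bp apart, and the third gene was 2.58-fold lower. In all 3 the libraries did not overlap.

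The next 3 runs by mean change lay on other scaffolds. On scaffold00330, scaffold00330.g9182 (113927 to 114628), scaffold00330.g9183 (115917 to 119785) and scaffold00330.g9184 (119907 to 122101) were 2.45-fold, 15.9-fold and 8.88-fold lower, and averaged 11.4, 6.51 and 1.29 FPKM in N-deprived and 29.8, 118 and 19.6 FPKM in N-replete cells. On scaffold00341, scaffold00341.g9769, scaffold00341.g9770 and scaffold00341.g9771 (169313 to 171387) were 9.49-fold, 8.13-fold and 3.19-fold higher, and averaged 14.3, 1753 and 108 FPKM in N-deprived and 0.613, 215 and 33.3 FPKM in N-replete cells. The first of these lies 184 bp from the second, which was far more abundant in both media. On scaffold00009, scaffold00009.g369 (125854 to 130583), scaffold00009.g370 (130630 to 133053) and scaffold00009.g371 (133148 to 135036) were 2.24-fold, 9.25-fold and 6.56-fold higher, and averaged 61.3, 184 and 207 FPKM in N-deprived and 26.8, 19.1 and 30.8 FPKM in N-replete cells.

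By position at a larger scale, changed genes were spread over all of the 29 sequences with at least 100 genes tested. The share at least 2-fold higher ran from 3.70% on scaffold00355 to 10.6% on scaffold00096, and the share at least 2-fold lower from 2.27% on scaffold00007 to 8.84% on scaffold00080. Scaffold00145 was lower for more genes (25) than it was higher (16), and scaffold00355 likewise (6 and 4). By locus length, introns included, the median log2 difference of 10 length classes lay between 0.08 and 0.15 with no steady course, and the class of shortest loci had the most genes at least 2-fold higher, 87, beside 43 at least 2-fold lower.

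Some abundant genes differed little between the media. For 704 genes (7.3%) the 95% interval of the log2 difference lay within -0.25 to 0.25. The most abundant of them was scaffold00341.g9878 (scaffold00341, 433717 to 435337), with 566, 560 and 492 FPKM in N-deprived libraries and 475, 568 and 556 FPKM in N-replete libraries. The next, scaffold00354.g10009 (scaffold00354, 98356 to 99371), had 517, 517 and 503 FPKM in N-deprived libraries and 486, 483 and 549 FPKM in N-replete libraries. The others of the first 6, scaffold00330.g9317, scaffold00043.g1915, scaffold00271.g7956 and scaffold00262.g7500, averaged 374 to 505 FPKM in N-deprived and 369 to 491 FPKM in N-replete cells. This holds for FPKM as deposited: with quantile normalization the 6 stood 0.37 to 0.50 higher on the log2 scale and all were called, and with median-ratio centring 4 of the 6 were called lower, by 0.12 to 0.19.

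The 24 h difference was compared with those at the other times, which come from other libraries but share 1 variance per gene in the fit. Of the 676 genes at least 2-fold higher at 24 h, 485, 501 and 541 were called higher at 3, 4 and 6 h, where 28%, 20.6% and 19.5% of all genes were. At 12 and 48 h 587 and 662 were, where 38.7% and 46.1% of all genes were. Of the 461 at least 2-fold lower, 248, 298 and 359 were called lower at 3, 4 and 6 h, where 12%, 12% and 15.1% of all genes were, and 388 and 448 at 12 and 48 h, where 23.9% and 29.8% were. The median log2 difference of the genes higher at 24 h was 0.48, 0.51 and 0.53 at 3, 4 and 6 h, then 0.82 at 12 h, 1.35 at 24 h and 1.44 at 48 h. That of the genes lower at 24 h was -0.30, -0.42 and -0.61, then -1.01, -1.32 and -1.39. Because the genes were chosen at 24 h, their value at that time is raised by the choice. Of the genes higher, 308 had their largest rise at 24 h and 318 at 48 h. Of the genes lower, 124 had their deepest fall at 24 h, 218 at 48 h and 64 at 3 h.

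**Figure D4:**
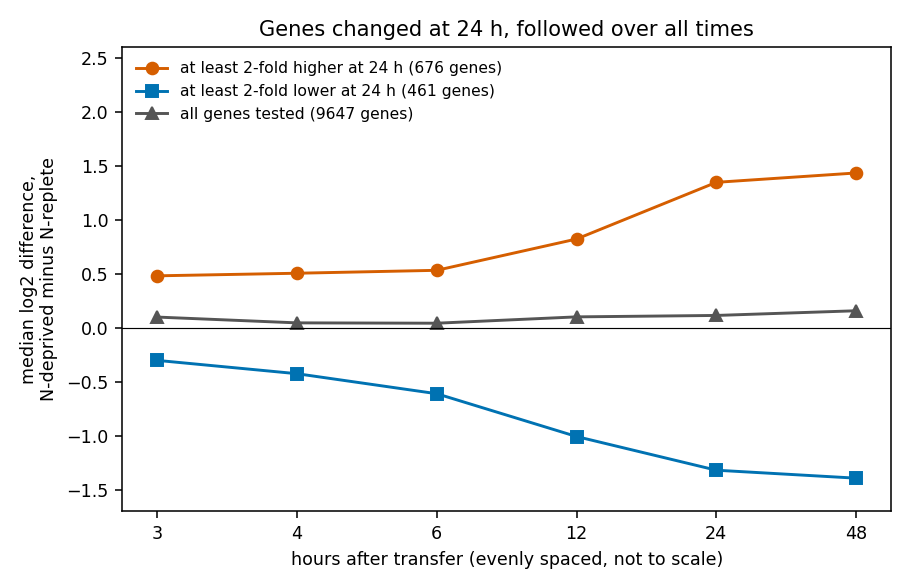
Median log2 difference, N-deprived minus N-replete, at each time for the 676 genes at least 2-fold higher at 24 h (orange circles), the 461 at least 2-fold lower (blue squares) and all 9647 genes tested (grey triangles); the times are evenly spaced on the axis. Both sets lie on their own side of the all-gene median from 3 h on, and widen most between 6 and 24 h, to 1.35 and -1.32.

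The difference at 24 h was unlike that at 12 h for many genes. Differences are signed, so a positive value can be a stronger rise or a weaker fall at 24 h. A negative value can be a weaker rise or a deeper fall, and the counts do not separate these. The 24 h less the 12 h difference passed for 48.6% of genes in limma, and was 2-fold or more positive for 360 genes (3.73%) and 2-fold or more negative for 440 (4.56%). Positive calls numbered 2598 (26.9% of genes tested) and negative calls 2092 (21.7%). With median-ratio centring they were 2292 and 2714, and with quantile normalization 2788 and 2602, so the larger side turned under centring only. Of the 9647 genes tested, 339 were called higher at 24 h and lower at 12 h, and 562 lower at 24 h and higher at 12 h. Of the first 26 were at least 2-fold higher at 24 h, and of the second 26 at least 2-fold lower. At least 2-fold at both times were 1 of the first and 2 of the second, so nearly all these changes of direction were small. These counts are for FPKM as deposited. At 12 h the 10 most abundant genes of a library held 13.4% to 14.3% of summed FPKM in N-deprived and 14.4% to 14.8% in N-replete libraries. At 24 h they held 4.82% to 4.97% in N-deprived and 6.78% to 7.01% in N-replete libraries, and the part of this in the differences was not tested. Against 48 h, 33.6% of genes passed, with 1733 positive calls (18% of genes tested) and 1513 negative calls (15.7%). With median-ratio centring 1846 were positive and 1918 negative, and with quantile normalization 1944 and 2091, so the larger side turned under both. The difference was 2-fold or more positive for 313 genes (3.24%) and 2-fold or more negative for 76 (0.788%). Among the 9647 genes tested, 95 higher at 24 h were called lower at 48 h, and 87 the other way. Only 1 of the 95 and 0 of the 87 were at least 2-fold changed at 24 h.

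Some genes passed the 2-fold limit in their direction at 24 h and at no other time. Of the 676 genes higher, 76 stayed under 2-fold at all 5 other times and had a 24 h difference called above the mean of those times. Of the 461 lower, 37 did so in the other direction. A called difference from each single time was not required, so some may lie just under 2-fold at another time. The 24 h less the mean of the other 5 differences passed for 45.2% of genes in limma, 2-fold or more positive for 121 (1.25%) and 2-fold or more negative for 79 (0.819%). Positive calls numbered 2543 (26.4% of genes tested) and negative calls 1817 (18.8%), 2021 and 2720 with median-ratio centring, and 2427 and 2518 with quantile normalization.

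Single genes reached such differences in different ways. Transcripts of scaffold00271.g8199 (scaffold00271, 871659 to 873245) had 49.8, 56.0 and 46.9 FPKM in N-deprived libraries and 3.06, 3.20 and 3.44 FPKM in N-replete libraries at 24 h, while at 12 h they averaged 15.96 ± 1.96 FPKM in N-deprived and 13.3 ± 2.28 FPKM in N-replete cells (SD, n = 3 each). At 48 h they stood at 26.2 ± 3.69 FPKM in N-deprived and 2.53 ± 0.836 FPKM in N-replete cells (SD, n = 3 each). The media were close together at 12 h and far apart at 24 and 48 h. Transcripts of scaffold00185.g5904 had their largest log2 difference at 24 h. N-deprived cells averaged 44.2, 175 and 213 FPKM at 12, 24 and 48 h, and N-replete cells 4.12, 4.72 and 23.0 FPKM. For scaffold00069.g2456 the N-replete level was highest at 24 h, with N-deprived cells at 5.45, 0.480 and 0.886 FPKM at 12, 24 and 48 h and N-replete cells at 12.6, 35.2 and 9.97 FPKM.

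Other genes had unlike differences at 12 and 24 h. Transcripts of scaffold00009.g706 (scaffold00009, 1003702 to 1006148) had 3.39, 3.09 and 2.75 FPKM in N-deprived libraries and 20.4, 19.0 and 28.2 FPKM in N-replete libraries at 24 h, but averaged 6.88 ± 1.04 FPKM in N-deprived and 2.85 ± 0.215 FPKM in N-replete cells at 12 h (SD, n = 3 each). At 6 h they averaged 48.0 ± 7.91 FPKM in N-deprived and 57.8 ± 12.2 FPKM in N-replete cells (SD, n = 3 each). N-deprived means were lower at 24 h than at 12 h, and N-replete means higher. Transcripts of scaffold00190.g6022 (scaffold00190, 67577 to 68161) had 21.6, 24.6 and 21.9 FPKM in N-deprived libraries and 4.83, 2.01 and 1.46 FPKM in N-replete libraries at 24 h, and averaged 9.98 FPKM in N-deprived and 8.91 FPKM in N-replete cells at 12 h. Those of scaffold00127.g4290 (scaffold00127, 365405 to 366886) had 27.5, 21.9 and 23.3 FPKM in N-deprived libraries and 2.59, 2.59 and 3.75 FPKM in N-replete libraries at 24 h, and averaged 8.82 FPKM in N-deprived and 8.08 FPKM in N-replete cells at 12 h. For both genes the media were apart at 24 h and close at 12 h. Before that, scaffold00127.g4290 was called higher at 3, 4 and 6 h, by log2 1.04, 1.14 and 0.56, and scaffold00190.g6022 was not called.

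Other genes parted further by 48 h. Transcripts of scaffold00308.g8744 (scaffold00308, 63 to 4860) had 42.3, 40.4 and 36.6 FPKM in N-deprived libraries and 66.8, 69.2 and 76.5 FPKM in N-replete libraries at 24 h, and averaged 21.2 FPKM in N-deprived and 148 FPKM in N-replete cells at 48 h. Those of scaffold00145.g5153 (scaffold00145, 887188 to 897966) averaged 7.54 FPKM in N-deprived and 10.2 FPKM in N-replete cells at 24 h, and 4.05 FPKM in N-deprived and 29.4 FPKM in N-replete cells at 48 h. Those of scaffold00140.g4714 (scaffold00140, 540450 to 542383) averaged 5.88 FPKM in N-deprived and 10.99 FPKM in N-replete cells at 24 h, and 3.44 FPKM in N-deprived and 28.7 FPKM in N-replete cells at 48 h. In these genes the N-replete mean was higher at 48 h than at 24 h and the N-deprived mean lower.

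**Figure D5:**
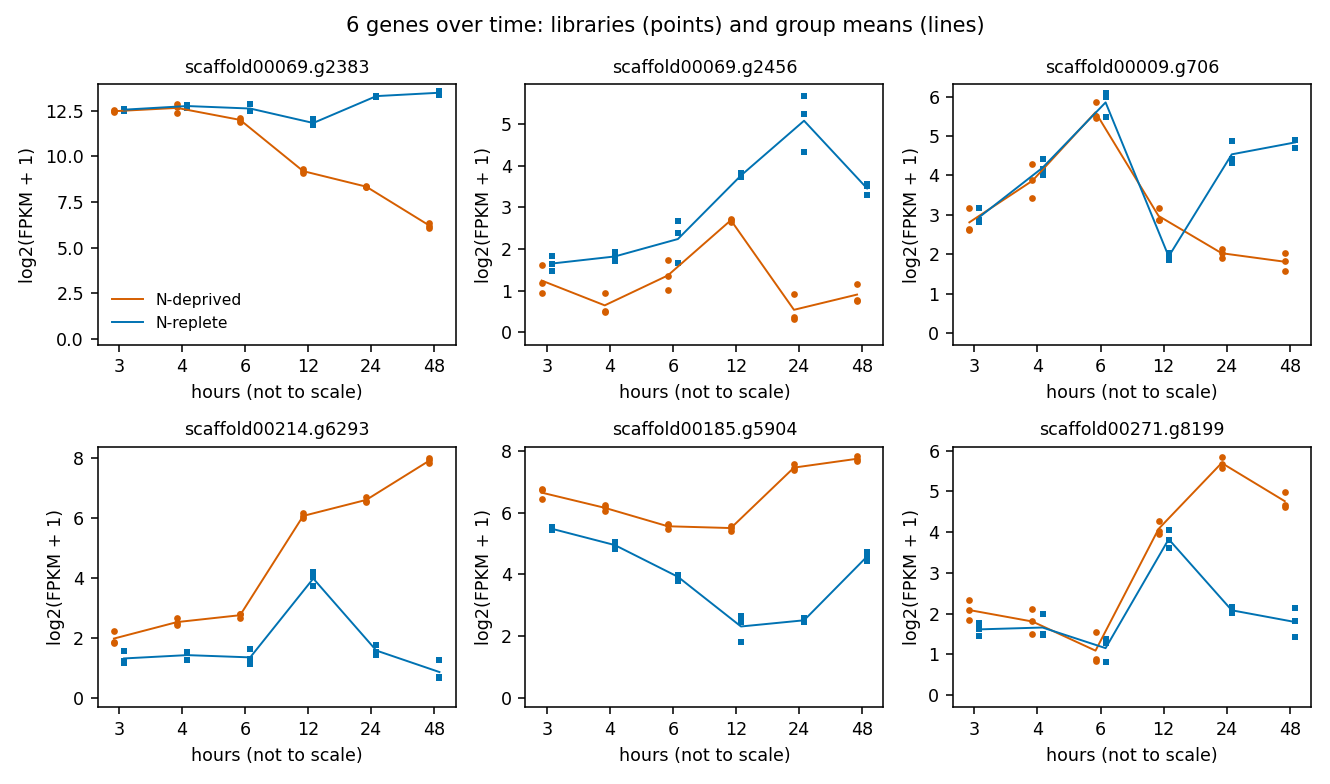
Levels of 6 genes over time on the log2(FPKM + 1) scale, each library as a point and each group mean on a line, N-deprived in orange and N-replete in blue; the times are evenly spaced and the vertical axes differ. For scaffold00271.g8199 the media lie close up to 12 h and apart at 24 and 48 h, and for scaffold00009.g706 their order at 12 h is the reverse of that at 24 h.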

How the data were processed

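Poly(A) RNA was read as 90 bp pairs from strand-nonspecific libraries, per the labels' protocols. The labels' molecule field names nuclear RNA, while their protocol describes total RNA. What the authors deposited is FPKM for each gene model. The submitters' processing notes name TopHat2 2.0.4 and Cufflinks 2.0.2, without their roles or settings. Genome build and annotation are not given in the sources used here. The table of the whole series and the 36 tables of 1 library held the same values. Shared fragments can be split between near-identical genes, so such genes are uncertain. FPKM carries no fragment count, so no counting interval is given.

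Values were taken as log2(FPKM + 1), a log2 scale computed here from the deposited FPKM. In R 4.3.3, limma 3.58.1 estimated a mean for each of 12 groups from all 36 libraries (moderated variances, trended prior, Benjamini-Hochberg adjustment within each comparison, two-sided, called under 0.05), and tested on simulated data. Contrasts were N-deprived less N-replete at 24 h, and that difference less the one at 12 h, at 48 h and less the mean of the other 5. Alternatives were other pseudocounts (0.1 and 5 FPKM), no filter, other scalings, a replicate block, the 24 h libraries alone, no 12 h libraries, no trend, and leaving out each 24 h library. The members and lists were chosen with earlier results of these data known. Named genes are the 12 largest rises and falls by log2 difference with libraries that do not overlap and a mean of at least 10 FPKM in the higher group, the 6 largest gains and losses in FPKM, the gene with a symbol, the 4 most positive and negative values of each difference between times, the 10 most abundant genes of each medium, genes under 1 FPKM in a medium and at 10 FPKM or more in the other, the 4 longest runs of neighbours (ties ordered by mean change), and the 6 most abundant genes with a narrow interval around 0. The labels do not say whether a replicate number follows 1 culture. With 3 libraries a medium, the smallest two-sided p of an exact permutation test is 0.1, so single genes rest on limma.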

Additional observations from a re-analysis of the deposited data

Results flagged for a closer look

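The effect of N-deprived against N-replete medium at 24 h differed from that at another time by a test of the difference itself (limma, Benjamini-Hochberg adjusted p under 0.05) for 4690 genes against 12 h, 3246 against 48 h and 4360 against the mean of the other 5 times.

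Against 12 h, the log2 difference at 24 h was more positive by 3.36 for scaffold00271.g8199, 2.94 for scaffold00214.g6293, 2.61 for scaffold00190.g6022 and 2.56 for scaffold00127.g4290. It was more negative, at -3.54 for scaffold00009.g706, -3.47 for scaffold00069.g2456, -2.32 for scaffold00069.g2383 and -2.30 for scaffold00145.g5108.

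Against 48 h, the differences of effects were 2.31 for scaffold00069.g2383, 2.20 for scaffold00145.g5153, 1.97 for scaffold00140.g4714 and 1.92 for scaffold00308.g8744, all of which were lower in N-deprived cells at both times and more so at 48 h. They were -2.03 for scaffold00214.g6293, -1.99 for scaffold00069.g2456, -1.92 for scaffold00271.g8087 and -1.89 for scaffold00111.g3924, whose call was lost with a pseudocount of 0.1 FPKM (limma, adjusted p = 0.0927). The gene scaffold00271.g8087 spans 215 bp and its N-deprived libraries had 49.2, 9.43 and 32.4 FPKM at 24 h, so the 24 h difference itself was -0.03 (SE 0.534; limma, adjusted p = 0.961). Without N-deprived replicate 2 its difference from 48 h was -1.27 (limma, adjusted p = 0.192).

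Against the mean of the other 5 times, the 24 h difference was more positive by 2.87 for scaffold00185.g5904, 2.86 for scaffold00271.g8199, 2.56 for scaffold00214.g6293 and 2.31 for scaffold00341.g9769. It was more negative, at -3.32 for scaffold00069.g2456, -2.81 for scaffold00069.g2383, -2.34 for scaffold00145.g5108 and -2.22 for scaffold00127.g4354.

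Single libraries were not tested as outliers, since each group holds 3.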

How the results depend on the processing

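For N-deprived against N-replete medium at 24 h, no alternative moved the number of calls by over 1.5 times: leaving out each 24 h library in turn gave 6102 to 6287 calls against 6537, with 646 to 741 rises and 415 to 511 falls of at least 2-fold. Calls of higher genes then ran from 3625 to 4049 against 3989, and of lower genes from 2199 to 2541 against 2548. The most higher and the fewest lower calls came without N-replete replicate 3. With only the 24 h libraries 6345 genes were called, and without the 12 h libraries 6717. With a pseudocount of 5 FPKM, which shrinks folds of low genes by its construction, the genes at least 2-fold more negative at 24 h than at 12 h were 256 against 440, those more positive than at 48 h 186 against 313 and more negative 38 against 76, and those more positive than the mean of the other 5 times 78 against 121 and more negative 45 against 79. Of the 152 runs of neighbours, 18 were found at 4-fold.

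Between libraries of the media with the same replicate number, deviations from the group means correlated at -0.13, 0.05 and 0.009 across genes (numbers 1, 2 and 3). Unlike numbers gave values from -0.25 to 0.25. These values come from 24 h only and cannot decide whether a number pairs cultures of the media. With the replicate block 6492 genes were called at 24 h, with 676 rises and 461 falls of at least 2-fold. The call of scaffold00271.g8087 against 48 h was lost with it (limma, adjusted p = 0.0566). The block gives both media the same shift, so it cannot take up a shift of opposite direction, as replicate 3 had in summed FPKM.

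Of 1220 values of named genes under 15 alternatives, 1197 kept direction and call, 10 passed newly, 8 lost their call and 5 reversed, that is passed with the opposite sign. The reversed ones were log2 0.47 for scaffold00043.g1915, 0.51 for scaffold00182.g5679 and 0.43 for scaffold00271.g7956 with quantile normalization, and -0.12 for scaffold00330.g9317 and -0.14 for scaffold00354.g10009 with median-ratio centring. Of these genes only scaffold00182.g5679 was called with FPKM as deposited, at log2 -0.59. The others were of the 6 abundant genes with a narrow interval around 0, of which 0 were called. The cause was not tested. The call of scaffold00111.g3924 was lost with a pseudocount of 0.1 FPKM (limma, log2 1.63, adjusted p = 0.112), and so was that of its difference from 48 h (log2 -2.82, adjusted p = 0.0927). Against 48 h, scaffold00271.g8087 also lost its call with that pseudocount (limma, adjusted p = 0.0525), with no filter (adjusted p = 0.0555), without N-replete replicate 2 (log2 -1.74) and without N-replete replicate 3 (log2 -1.95).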
